A study of Mus musculus with 17 samples.

Results

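Igf2bp1, Igf2bp2 and Igf2bp3 encode the insulin-like growth factor 2 mRNA-binding proteins, a family of cytoplasmic RNA-binding proteins. Their messages were followed across all 17 libraries of a study of Lin28b and let-7 in mouse common myeloid progenitors (CMPs). The members were taken by gene symbol and are 3 of the 24416 genes counted. Each was counted on a single RefSeq transcript, and all 3 passed the filter on low counts. CMPs, the bone marrow and fetal liver cells that give rise to granulocytes, monocytes, red cells and platelets, had been sorted by flow cytometry. Fetal liver gave libraries labelled Lin28b knockout (n = 3), an inducible let-7 library (n = 1) and wild-type libraries (n = 3). Adult bone marrow gave let-7b/c knockout libraries (n = 3), inducible LIN28B libraries under vavcre (n = 2), inducible LIN28B libraries without vavcre (n = 2) and wild-type libraries (n = 3). The strain was C57BL/6J for all groups except the let-7b/c knockout, which was labelled albino black 6. The treatment label was the same for all 17 libraries, wild types and knockouts included, namely doxycycline to induce Lin28b. The design text describes vavcre as making the induction specific to blood-forming cells. Ages, and how many animals a library was made from, are not stated in the sources used here. Whether the replicates are different animals is not stated either, and the p-values describe variation from library to library, possibly technical.

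IGF2BP proteins bind target messages through RNA-recognition and KH domains and affect where those messages go, how long they last and how well they are translated. Igf2bp1 and Igf2bp3 are known as embryonic genes that are low in most adult tissues, and Igf2bp2 is the member best known from adult tissues. All 3 are described as targets of let-7, a microRNA family that represses messages carrying its seed match in the 3′ untranslated region (UTR). LIN28B, a fetal RNA-binding protein, blocks the maturation of let-7, and in mouse B-cell progenitors it has been described to act in part through Igf2bp3.

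The let-7 pairing sites are shown first because they are the feature that links the family to the axis under study. The seed, bases 2 to 8 of the mature microRNA, is in capitals in the mature sequences below (RefSeq, GRCm38.p6), which include the let-7b and let-7c forms named in the knockout. All 9 mature let-7 family sequences examined, miR-98 among them, share the same seed, GAGGUAG.
mmu-let-7a-5p: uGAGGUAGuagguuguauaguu
mmu-let-7b-5p: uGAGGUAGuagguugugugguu
mmu-let-7c-5p: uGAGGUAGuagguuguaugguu
mmu-let-7g-5p: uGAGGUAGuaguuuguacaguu

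The matching DNA letters, CTACCTC, were searched in the annotated 3′ UTRs on the strand of the message (GENCODE vM21, GRCm38). Igf2bp1 (NM_009951; chr11:95957163-96005944, minus strand, 15 exons) held 4 matches in a 3′ UTR of 6337 bases. Igf2bp2 (NM_183029; chr16:22059009-22163299, minus strand, 16 exons) held 1 match in 1784 bases. Igf2bp3 (NM_023670; chr6:49085218-49215469, minus strand, 15 exons) held 1 match in 2119 bases. Each match is given as a 30-base window, with the seed match in capitals. The Igf2bp1 windows lie at chr11:95961778-95961807, chr11:95959357-95959386, chr11:95958763-95958792 and chr11:95958140-95958169, the Igf2bp2 window at chr16:22059473-22059502 and the Igf2bp3 window at chr6:49086787-49086816, all on the minus strand. Sites 1 to 3 of Igf2bp1 and the sites of Igf2bp2 and Igf2bp3 are followed by A, a base known to strengthen microRNA sites, and site 4 of Igf2bp1 is not.
Igf2bp1 site 1: aggcagtgctgtgcgaagtaaaCTACCTCa
Igf2bp1 site 2: tgggaaccagcagtgctattaaCTACCTCa
Igf2bp1 site 3: actacgagtataaatggatgaaCTACCTCa
Igf2bp1 site 4: ctgtttcacttttggttttaatCTACCTCt
Igf2bp2 site 1: gagaaaaacacacaaataaaagCTACCTCa
Igf2bp3 site 1: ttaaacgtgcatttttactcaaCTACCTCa

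Of 20831 3′ UTRs examined, 1 per gene, 9.11% held at least 1 match and 0.0576% held at least 4. Of 564 UTRs within 20% of the length of that of Igf2bp1, 0.355% held at least as many matches as it does. The share of UTRs of like length with at least as many matches was 12% of 2897 for Igf2bp2 and 13.3% of 2784 for Igf2bp3. Hmga2, a let-7 target used below for comparison, held 4 matches, as did Lin28b, and Lin28a held 2. A match is a description of the letters and was not tested as a site of binding.

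**Figure D1:**
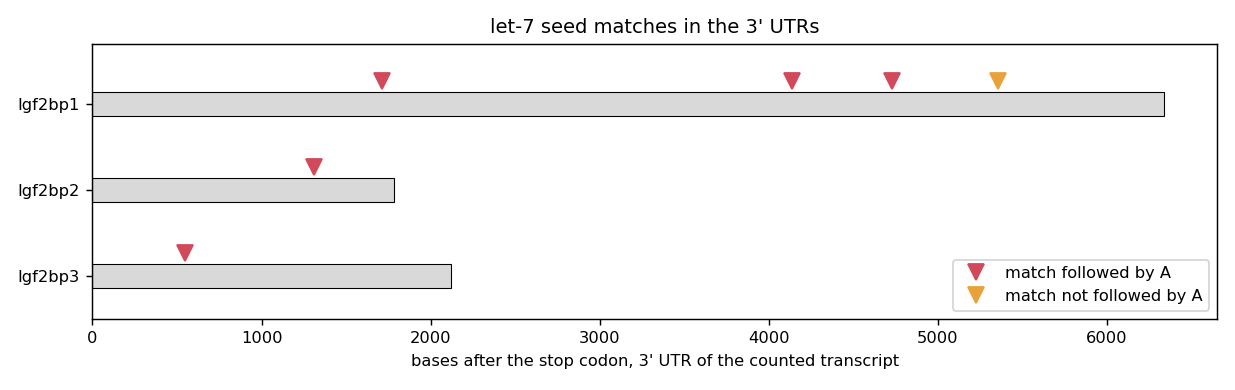
Position of each let-7 seed match in the 3′ UTR of the counted Igf2bp transcripts, in bases after the stop codon. Grey bars are the UTRs and triangles the matches, red where the next base is A and orange where it is not. Igf2bp1 holds 4 matches and Igf2bp2 and Igf2bp3 1 each.

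The libraries held 14957111 to 28165554 counts, and levels are given in CPM, which are counts scaled to library size with TMM factors. The targeted gene went against its label. Lin28b had 111.9, 88.9 and 110.7 CPM in the libraries labelled Lin28b knockout, against 89.3, 99.6 and 123.6 CPM in wild-type fetal liver, with a log2 difference of -0.00 (edgeR adjusted p = 1). A count over the whole transcript would not reveal a deletion of part of it, and the group is referred to below by its label only. Of 17 CMP markers, 12 to 14 had counts in a given library, and Kit, Cebpa and Runx1 had 0 counts in all 17. Mature let-7 was not analysed here. Igf2bp3 shares 1529 exonic bases, 35.2% of its transcript, with the RefSeq gene Malsu1 on the opposite strand. Strandedness of the counting is not given in the sources used here, and without it reads of the overlap cannot be told apart. Malsu1 averaged 26.5 to 46.1 CPM in 6 groups and stood at 101.4 CPM in the inducible let-7 library. Of the 6 groups, LIN28B with vavcre had the highest mean and wild-type bone marrow the lowest. The part of Malsu1 reads in the Igf2bp3 values was not tested. Igf2bp1 shares 92 exonic bases with Mir3063, and the counted transcript of Igf2bp2 shares none with another gene. The longest identical stretch between transcripts of 2 members was 28 bases, in Igf2bp2 and Igf2bp3. In the LIN28B bone marrow libraries, replicate 4 of the vavcre line stood apart for Igf2bp2 and Igf2bp3, so values of these comparisons are also given without it.

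All 3 messages were higher in fetal CMPs. In wild-type fetal liver CMPs each stood above 180 CPM, whereas in wild-type bone marrow CMPs Igf2bp1 was close to the detection limit and Igf2bp2 and Igf2bp3 were below 10 CPM. The difference was 422-fold for Igf2bp1, 35.8-fold for Igf2bp2 and 70.7-fold for Igf2bp3. Tissue and developmental stage change together in this comparison and cannot be told apart.

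Igf2bp1 had 218.0, 184.1 and 218.5 CPM in the wild-type fetal liver libraries, against 0.844, 0.234 and 0.329 CPM in wild-type bone marrow. The bone marrow value rests on 27 counts over 3 libraries, so its fold has a wide interval. The log2 fold change was 8.72 (SE 0.51; 95% interval 7.64 to 9.81; edgeR adjusted p = 1.95e-08), and 9.5 without wild-type bone marrow replicate 2 (adjusted p = 3.26e-07). Igf2bp2 had 229.2, 225.2 and 254.0 CPM in wild-type fetal liver, against 8.34, 5.68 and 5.70 CPM in wild-type bone marrow, a log2 fold change of 5.16 (SE 0.23; edgeR adjusted p = 1.11e-09). Igf2bp3 had 281.7, 273.3 and 286.5 CPM in wild-type fetal liver, against 4.22, 3.92 and 3.73 CPM in wild-type bone marrow, a log2 fold change of 6.14 (SE 0.22; edgeR adjusted p = 1.4e-10). No fetal liver library overlapped a bone marrow library for any member. All 3 members were called higher (adjusted p under 0.05), where 13.9% of the 13558 genes tested were called higher, 13.2% lower and 27.1% in either direction. In bulk samples such as these, fewer cells of a type and less RNA per cell cannot be told apart. Summed marker levels of other cell types also differed here. Neutrophil markers held 6.71 to 41.1 CPM in wild-type fetal liver and 482.9 to 1147 CPM in wild-type bone marrow, and macrophage markers held 12.8 to 18.9 CPM in wild-type fetal liver and 58.3 to 68.6 CPM in wild-type bone marrow. Megakaryocyte markers held 131 to 157 CPM in wild-type fetal liver and 377 to 514 CPM in wild-type bone marrow, hepatocyte markers 123 to 132 CPM and 353 to 402 CPM in these groups, and stroma and endothelium markers 5.45 to 7.44 CPM and 17.7 to 26.8 CPM. The CMP markers were also lower, at 6181 to 7848 CPM in wild-type fetal liver and 11612 to 13820 CPM in wild-type bone marrow. Lymphoid markers were higher, at 166 to 203 CPM in wild-type fetal liver and 81.1 to 83.4 CPM in wild-type bone marrow, and erythroid markers overlapped (562 to 856 CPM and 567 to 865 CPM). Their part in the result was not tested.

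**Figure D2:**
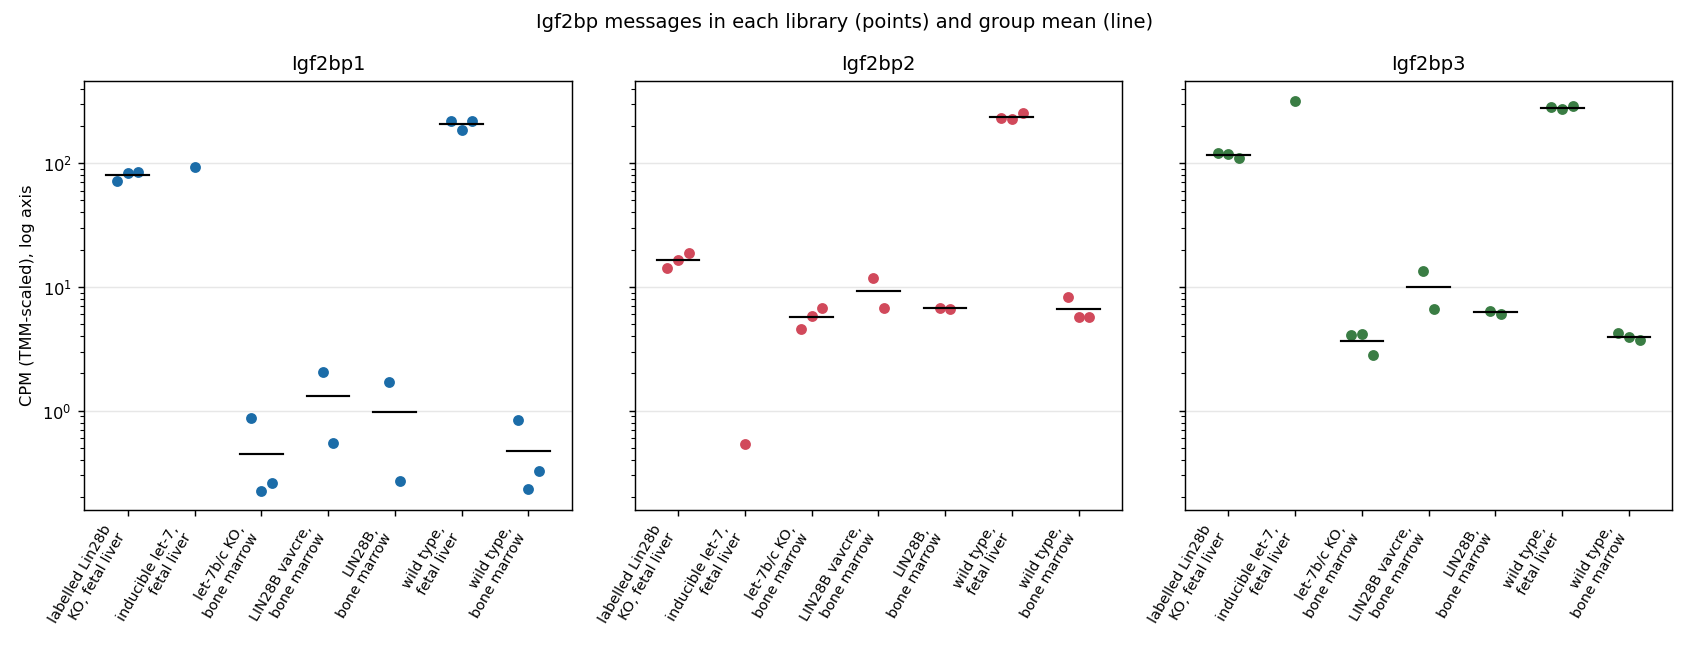
Level of each Igf2bp message in CPM (log axis) in the 7 groups. Points are single libraries and lines are group means, with no line for the single inducible let-7 library. Wild-type fetal liver lies at 184.1 to 286.5 CPM, the bone marrow groups lie below 14 CPM, and Igf2bp2 in the inducible let-7 library lies at 0.543 CPM.

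In the libraries labelled Lin28b knockout all 3 messages fell below wild-type fetal liver, and by unequal amounts. Igf2bp2 fell 14.2-fold, to 7.02% of the wild-type mean. Igf2bp1 fell 2.59-fold and Igf2bp3 fell 2.40-fold, to 38.6% and 41.6% of the wild-type means. Igf2bp2 had 14.3, 16.6 and 18.9 CPM in the labelled knockout libraries, against 229.2, 225.2 and 254.0 CPM in wild-type fetal liver (log2 fold change -3.83, SE 0.21, edgeR adjusted p = 1.38e-09). Igf2bp1 had 71.7, 83.6 and 84.3 CPM in the labelled knockout libraries, against 218.0, 184.1 and 218.5 CPM in wild-type fetal liver (log2 fold change -1.37, SE 0.33, edgeR adjusted p = 0.00287). With DESeq2 the Igf2bp1 difference was -1.30 and was not called (adjusted p = 0.0965). Igf2bp3 had 120.6, 119.1 and 110.3 CPM in the labelled knockout libraries, against 281.7, 273.3 and 286.5 CPM in wild-type fetal liver (log2 fold change -1.27, SE 0.17, edgeR adjusted p = 2.09e-05). No library of the labelled knockout overlapped wild-type fetal liver for any member. This comparison was broad, with 23% of all genes called lower, 20.8% higher and 43.8% in either direction, so that a call is common here.

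Markers of other cell types moved with this comparison. Summed over 26 erythroid markers, the labelled knockout libraries held 43194 to 50008 CPM and wild-type fetal liver 562 to 856 CPM. Summed over 18 hepatocyte markers, the labelled knockout libraries held 504 to 1638 CPM and wild-type fetal liver 123 to 132 CPM. Summed over 12 macrophage markers, the labelled knockout libraries held 453 to 562 CPM and wild-type fetal liver 12.8 to 18.9 CPM. Summed over 11 neutrophil markers, the labelled knockout libraries held 1796 to 3942 CPM and wild-type fetal liver 6.71 to 41.1 CPM. Megakaryocyte markers (12 genes) summed to 784 to 1400 CPM in the labelled knockout libraries and 131 to 157 CPM in wild-type fetal liver, and stroma and endothelium markers (15 genes) to 118 to 213 CPM and 5.45 to 7.44 CPM in these groups. Lymphoid markers (12 genes) summed to 45.0 to 53.0 CPM in the labelled knockout libraries and 166 to 203 CPM in wild-type fetal liver. Hba-a1, Hbb-bt and Add2 of the erythroid list, Serpina1a and Ahsg of the hepatocyte list, Ebf1 and Cd8a of the lymphoid list and S100a9 of the neutrophil list had 0 counts in all libraries. The CMP markers summed to 4350 to 7748 CPM in the labelled knockout libraries and 6181 to 7848 CPM in wild-type fetal liver. The part of these markers in the Igf2bp differences was not tested.

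Although lower than in wild-type fetal liver, the labelled knockout libraries stayed above wild-type bone marrow for all 3 members. Igf2bp1 was 163-fold higher (79.9 ± 7.07 CPM in the labelled knockout libraries and 0.469 ± 0.328 CPM in wild-type bone marrow; SD, n = 3 each; edgeR adjusted p = 8.81e-09). Its log2 fold change was 7.35, and 8.18 without wild-type bone marrow replicate 2 (adjusted p = 1.25e-07). Igf2bp3 was 29.4-fold higher (116.7 ± 5.55 CPM in the labelled knockout libraries and 3.96 ± 0.249 CPM in wild-type bone marrow; edgeR adjusted p = 6.87e-11). Igf2bp2 was 2.51-fold higher (16.6 ± 2.31 CPM in the labelled knockout libraries and 6.57 ± 1.53 CPM in wild-type bone marrow; edgeR adjusted p = 7.83e-05). Of all genes, 23.6% were called higher, 24.2% lower and 47.8% in either direction here.

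The inducible let-7 fetal liver library split the family. Igf2bp2 was close to the detection limit, with 14 counts or 0.543 CPM (95% Poisson interval 0.297 to 0.911 CPM, which covers counting error only). Wild-type fetal liver averaged 236.1 ± 15.6 CPM (SD, n = 3), which is 435 times as much, and even the wild-type bone marrow mean was 12.1 times as high. Igf2bp1 stood at 93.6 CPM in the inducible let-7 library, 2.21-fold below the wild-type fetal liver mean of 206.9 ± 19.7 CPM (SD, n = 3) and outside its range. Igf2bp3 stood at 319.9 CPM in the inducible let-7 library, 1.14 times the wild-type fetal liver mean of 280.5 ± 6.69 CPM (SD, n = 3) and above its highest library. Malsu1, whose exons overlap those of Igf2bp3, was also higher here, at 101.4 CPM against 30.6 to 39.6 CPM in wild-type fetal liver. Its part in the Igf2bp3 value was not tested. There is a single inducible let-7 library, so these differences have no replicate check and no test. It had the most counts of the 17 libraries (28165554). Yet for most cell types it held fewer markers with counts than any wild-type fetal liver library. Lymphoid markers with counts were 4 of 12, against 9 to 10 in wild-type fetal liver. For stroma and endothelium they were 2 of 15, against 5 to 8, and for erythroid markers 18 of 26, against 18 to 19. The bearing of this on the Igf2bp2 value of the inducible let-7 library was not tested.

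Of all genes, 31.7% lay at least 2-fold below the wild-type fetal liver mean and below every wild-type library in that library, and 9.84% lay as far above. Igf2bp1 and Igf2bp2 met the lower criterion and Igf2bp3 neither. Of 6692 genes at 10 CPM or more in wild-type fetal liver, 3 were lower by at least as much as Igf2bp2 on the log2(CPM + 0.1) scale. They were Igf2bp2, Fastkd1 and Rbm19, named after their values were seen. The added 0.1 CPM keeps genes near the 10 CPM cut-off from reaching this size even at 0 counts. The count over 6692 genes therefore does not measure how rare the gap was. Fastkd1 had 0 counts and Rbm19 1 count in the inducible let-7 library, against means of 47.2 and 67.1 CPM in wild-type fetal liver. Of 2408 genes at 100 CPM or more, Igf2bp2 was the only 1. This cut-off was chosen after seeing the data and lies above the means of Fastkd1 and Rbm19, so it does not measure rarity either. Hmga2, a chromatin protein gene, had 25.2 CPM in the inducible let-7 library and 532.5 ± 11.2 CPM in wild-type fetal liver, 21.1-fold lower. Among 31 let-7 target messages tested, Hmga2 and Lin28b included, 15 met the lower criterion and 0 the higher, with a median log2 ratio of -1.02 against -0.36 over all genes. Of the 15, Nr6a1, Trim71, Plagl1, E2f6 and Irs2 averaged only 0.150 to 1.97 CPM in wild-type fetal liver, so their falls rest on few counts. In the inducible let-7 library the CMP markers summed to 19965 CPM, the hepatocyte markers to 225.9 CPM and the macrophage markers to 28.4 CPM. These sums were above wild-type fetal liver, but fewer of the markers had counts. Of 18 hepatocyte markers 5 had counts, against 8 to 12 in the wild-type fetal liver libraries. Of 12 macrophage markers 5 had counts, against 8 to 10, and of 17 CMP markers 12, against 13. The erythroid (340.5 CPM), megakaryocyte (59.1 CPM), lymphoid (38.4 CPM), neutrophil (2.83 CPM) and stroma and endothelium (0.0775 CPM) sums were below wild-type fetal liver. The part of the markers in the Igf2bp values was not tested.

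With LIN28B induction in adult bone marrow Igf2bp3 rose, and the family stayed far below its fetal level. Over the 4 LIN28B libraries Igf2bp3 averaged 8.13 ± 3.59 CPM, against 3.96 ± 0.249 CPM in 3 wild-type bone marrow libraries (SD), a 1.99-fold rise (log2 fold change 1.0, SE 0.20, 95% interval 0.56 to 1.43, edgeR adjusted p = 0.00463). Single libraries stood at 13.5 and 6.58 CPM with vavcre and at 6.37 and 6.07 CPM without it, all above the wild-type bone marrow libraries at 4.22, 3.92 and 3.73 CPM. Here 6.59% of all genes were called higher, 7.86% lower and 14.4% in either direction. Without replicate 4 of the vavcre line, which leaves a single library in that line, the log2 fold change was 0.70. The macrophage markers summed to 13.3 to 31.5 CPM in the LIN28B libraries and 58.3 to 68.6 CPM in wild-type bone marrow, and the neutrophil markers to 546.7 to 3095 CPM in the LIN28B libraries and 482.9 to 1147 CPM in wild-type bone marrow. Erythroid markers summed to 933 to 1199 CPM in the LIN28B libraries and 567 to 865 CPM in wild-type bone marrow, and stroma and endothelium markers to 2.58 to 9.03 CPM in the LIN28B libraries and 17.7 to 26.8 CPM in wild-type bone marrow. The CMP (6970 to 12832 CPM with LIN28B), hepatocyte (259.5 to 400.1 CPM), megakaryocyte (309.6 to 411 CPM) and lymphoid (79.2 to 144.8 CPM) sums overlapped the wild-type bone marrow ranges. Their part in the result was not tested. With each of the 7 libraries left out in turn, Igf2bp3 gave 0.70 to 1.21. With a wild-type library left out it stayed called (adjusted p of at most 0.0246). Leaving out a LIN28B library leaves a single library in its line, so only the size is given there. When the fit held only the groups compared, the same change of 1.0 was not called (adjusted p = 0.0862).

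The other members showed no called difference. Igf2bp2 averaged 8.01 ± 2.57 CPM in the LIN28B libraries and 6.57 ± 1.53 CPM in wild-type bone marrow (log2 fold change 0.26, 95% interval -0.17 to 0.69, edgeR adjusted p = 0.418). Its single LIN28B libraries stood at 11.9 and 6.71 CPM with vavcre and at 6.80 and 6.66 CPM without it, and all but the highest lay within the wild-type range. Igf2bp1 averaged 1.15 ± 0.873 CPM in the LIN28B libraries and 0.469 ± 0.328 CPM in wild-type bone marrow (log2 fold change 1.2, 95% interval -0.12 to 2.51, edgeR adjusted p = 0.216). Its single LIN28B libraries stood at 2.07 and 0.549 CPM with vavcre and at 1.70 and 0.269 CPM without it, overlapping wild type. These values rest on 95 counts in the LIN28B libraries and 27 in wild type, and they spread widely between libraries. The interval is therefore wide, and a difference within it is not excluded. Without replicate 4 of the vavcre line the log2 fold changes were 0.03 for Igf2bp2 and 0.58 for Igf2bp1. Igf2bp1 gave 0.30 without replicate 1 of the line lacking vavcre and 1.96 without wild-type replicate 2 (adjusted p = 0.152 for the latter). With any wild-type library left out, Igf2bp1 and Igf2bp2 were not called.

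By line, Igf2bp3 was called with vavcre and not called without it. With vavcre its log2 fold change against wild-type bone marrow was 1.34 (SE 0.23, edgeR adjusted p = 0.000501), where 12.5% of all genes were called higher, 14.3% lower and 26.8% in either direction. Without replicate 4 it was 0.74, and without replicate 6 it was 1.77. Each of these fits leaves a single library in the vavcre line, so only the size is given. Without vavcre the change was 0.65 (SE 0.24, edgeR adjusted p = 0.318). Here 0.509% of all genes were called higher, 0.295% lower and 0.804% in either direction. Malsu1, whose exons overlap those of Igf2bp3, had 44.9 to 47.3 CPM with vavcre and 24.6 to 30.9 CPM without it. In wild-type bone marrow Malsu1 had 24.5 to 28.2 CPM, and its part in the Igf2bp3 differences was not tested. The lines did not differ past the threshold for Igf2bp3, at 10.04 ± 4.90 CPM with vavcre and 6.22 ± 0.214 CPM without it (SD, n = 2 each; log2 difference 0.69, edgeR adjusted p = 0.0571, 9.37% of all genes called higher, 11.3% lower and 20.6% in either direction). That difference was called with DESeq2 (adjusted p = 0.022), with no filter on low counts (0.0313) and with only genes of 1 transcript (0.0474). It was 1.11 without vavcre replicate 6 and 0.08 without vavcre replicate 4. For Igf2bp2 the vavcre line against wild-type bone marrow gave 0.49 (adjusted p = 0.129), which was called without wild-type replicate 2 (0.71, adjusted p = 0.0492). It was 0.85 without vavcre replicate 6 and 0.03 without vavcre replicate 4. The difference of Igf2bp2 between the lines was 0.46 (adjusted p = 0.225), and it was 0.81 without vavcre replicate 6. For Igf2bp1 the vavcre line against wild-type bone marrow gave 1.42 (adjusted p = 0.13). It was 2.08 without vavcre replicate 6 and 0.19 without vavcre replicate 4. The 4 LIN28B libraries had 1.73 to 3.92 CPM of Lin28b, and replicate 4 of the vavcre line, the highest for each Igf2bp member, had the lowest of these values. Whether reads of the induced LIN28B fall on the counted mouse transcript is not stated in the sources used here. These values may thus not measure the induction.

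Set against wild-type fetal liver, the LIN28B libraries were 184-fold lower for Igf2bp1, 29.9-fold lower for Igf2bp2 and 35.5-fold lower for Igf2bp3 (edgeR adjusted p = 6.82e-09, 5.68e-10 and 1.72e-10). The Igf2bp1 log2 fold change was -7.53, and it was -8.44 without replicate 1 of the line lacking vavcre and -8.16 without vavcre replicate 4. Of all genes, 17.7% were called lower, 15% higher and 32.6% in either direction. The LIN28B means were 0.554%, 3.39% and 2.9% of the wild-type fetal liver means for Igf2bp1, Igf2bp2 and Igf2bp3. By the same measure Hmga2 stood at 14%, at 74.6 ± 16.8 CPM in the LIN28B libraries and 532.5 ± 11.2 CPM in wild-type fetal liver. Hmga2 was also 2.29-fold above its wild-type bone marrow level of 31.9 ± 3.46 CPM (edgeR adjusted p = 0.000359).

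**Figure D3:**
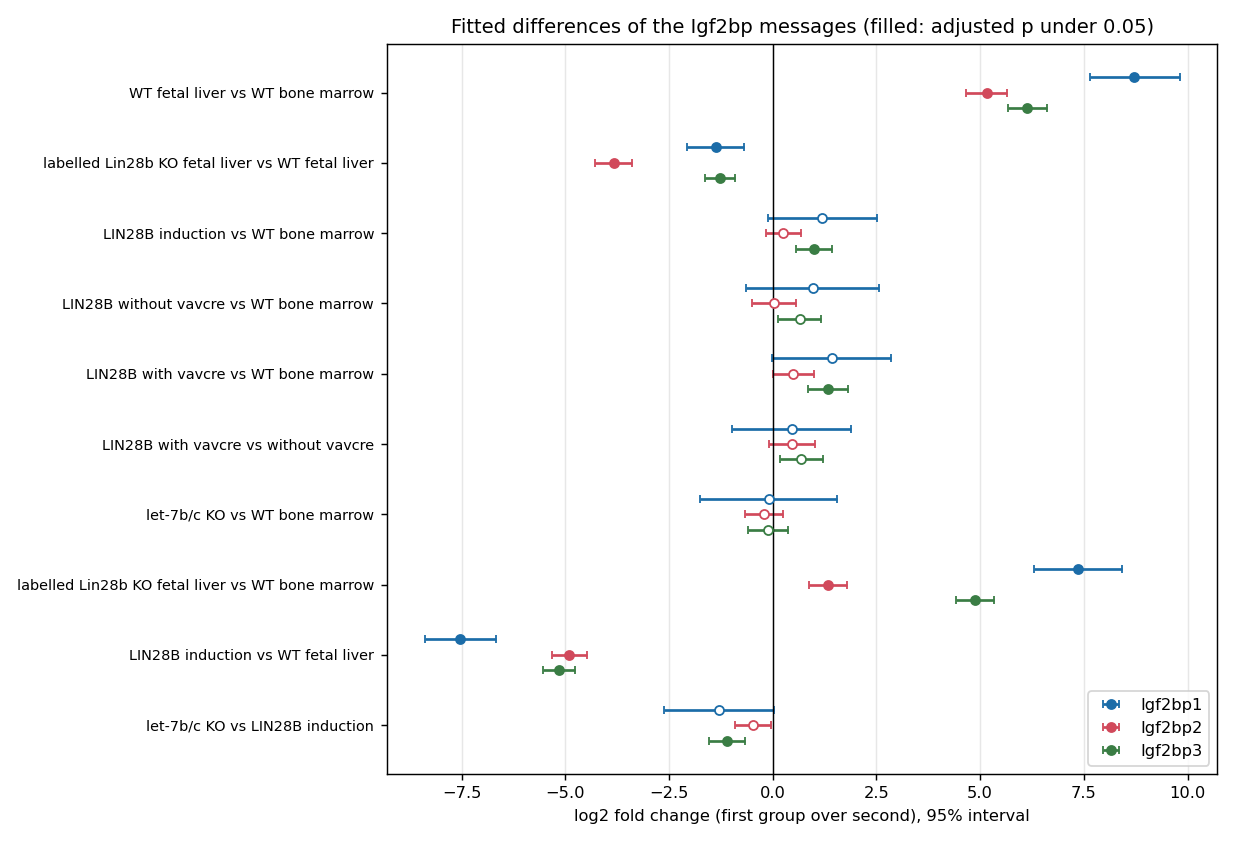
Log2 fold change of each member in the 10 comparisons fitted with edgeR, first-named group over second, with 95% intervals. Filled points have an adjusted p under 0.05. Igf2bp2 fell further than the other members in the labelled Lin28b knockout libraries (-3.83), and in LIN28B induction against wild-type bone marrow Igf2bp3 was the member called (1.0).

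Deletion of let-7b and let-7c in bone marrow gave no called difference in the family. Igf2bp1 had 0.865, 0.226 and 0.260 CPM in the let-7b/c knockout libraries, against 0.844, 0.234 and 0.329 CPM in wild-type bone marrow (log2 fold change -0.10, 95% interval -1.76 to 1.56, edgeR adjusted p = 0.98). Igf2bp2 had 4.60, 5.77 and 6.76 CPM in the knockout libraries, against 8.34, 5.68 and 5.70 CPM in wild type (log2 fold change -0.21, 95% interval -0.67 to 0.26, edgeR adjusted p = 0.74). Igf2bp3 had 4.06, 4.19 and 2.81 CPM in the knockout libraries, against 4.22, 3.92 and 3.73 CPM in wild type (log2 fold change -0.11, 95% interval -0.60 to 0.38, edgeR adjusted p = 0.892). The groups overlapped for each member, and the upper ends of the 95% intervals of Igf2bp2 and Igf2bp3 were log2 rises of 0.26 and 0.38. The comparison was narrow, with 1.33% of all genes called higher, 0.922% lower and 2.25% in either direction. Strain label and genotype change together here and cannot be told apart.

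Against the LIN28B libraries the let-7b/c knockout libraries were 2.15-fold lower for Igf2bp3, at 3.68 ± 0.761 CPM in the knockout (n = 3) and 8.13 ± 3.59 CPM with LIN28B (SD, n = 4; edgeR adjusted p = 0.00186, against 0.095 when the fit held only the groups compared). Of all genes, 8% were called lower, 10.5% higher and 18.5% in either direction. Igf2bp2 (log2 fold change -0.47, adjusted p = 0.125) and Igf2bp1 (-1.29, adjusted p = 0.166) were not called. Without replicate 6 of the vavcre line, which leaves a single library in that line, they were -0.62 and -1.60.

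The order of the groups differed by member. For Igf2bp1 it ran from wild-type fetal liver over the inducible let-7 library and the labelled Lin28b knockout to the bone marrow groups, which overlapped one another. Igf2bp3 had the inducible let-7 library at the top, then wild-type fetal liver, the labelled knockout, LIN28B with vavcre, LIN28B without vavcre, wild-type bone marrow and the let-7b/c knockout. Of these neighbours only wild-type bone marrow and the let-7b/c knockout overlapped for Igf2bp3. Igf2bp2 ran from wild-type fetal liver to the labelled knockout, then through the 4 bone marrow groups, which overlapped, to the inducible let-7 library at the bottom.

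Because the transcripts differ in length (8.378, 3.899 and 4.345 kb for Igf2bp1, Igf2bp2 and Igf2bp3), members were compared with each other in CPM per kb. The summed level was 40.6 ± 0.884 CPM per kb in the labelled Lin28b knockout, 84.9 in the inducible let-7 library, 149.8 ± 7.26 in wild-type fetal liver and 2.65 ± 0.484 in wild-type bone marrow (SD, n = 3 where given). The labelled knockout libraries were mostly Igf2bp3 (66.1%), with 23.4% Igf2bp1 and 10.5% Igf2bp2. The inducible let-7 library held 86.7% Igf2bp3, 13.1% Igf2bp1 and 0.164% Igf2bp2. In wild-type fetal liver Igf2bp3 made up 43.1%, Igf2bp2 40.4% and Igf2bp1 16.5% of the sum. In wild-type bone marrow Igf2bp2 was the largest part at 63.2%, with 34.8% for Igf2bp3 and 1.99% for Igf2bp1. LIN28B libraries held 49.8% Igf2bp2 with vavcre and 52.8% without it, against 63.2% in wild-type bone marrow. The overlap with Malsu1 bears on the Igf2bp3 part of these shares, by an amount that was not tested.

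**Figure D4:**
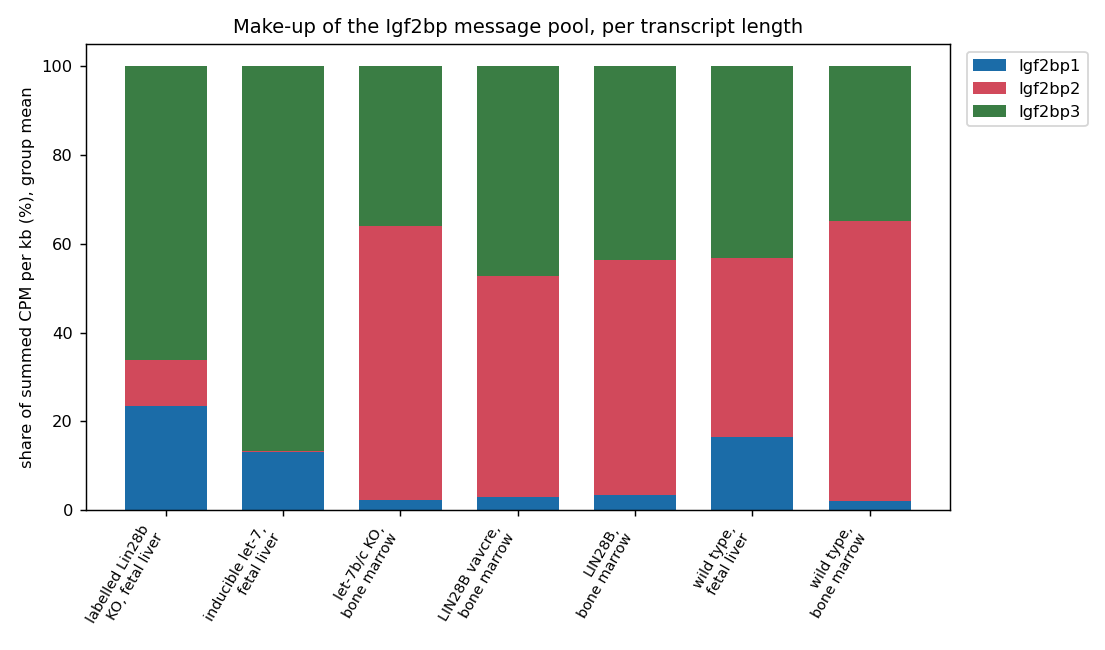
Share of each member in the summed CPM per kb of the 3 Igf2bp messages, as group means in percent. Igf2bp2 makes up 10.5% in the labelled Lin28b knockout, 0.164% in the inducible let-7 library, 40.4% in wild-type fetal liver and 63.2% in wild-type bone marrow.

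Ratios of members within a library depend on library size only through the small prior count added to each gene. Of these ratios, 12 were tested with two-sided exact permutation tests. The prior count matters where counts are few. Between the wild types the difference of Igf2bp2 over Igf2bp1 was -3.48, and it ranged from -3.72 to -3.11 with other prior counts. The log2 ratio of Igf2bp2 over Igf2bp1 averaged -2.27 in the labelled knockout and 0.19 in wild-type fetal liver, a difference of -2.46. The ratio of Igf2bp2 over Igf2bp3 averaged -2.82 in the labelled knockout and -0.25 in wild-type fetal liver, a difference of -2.57. Neither ratio overlapped between the groups, and each had the smallest p that 3 against 3 libraries allow (exact permutation p = 0.1, adjusted 0.2). The ratio of Igf2bp1 over Igf2bp3 overlapped, at -0.55 in the labelled knockout and -0.44 in wild-type fetal liver (exact permutation p = 0.6). In the inducible let-7 library the log2 ratio of Igf2bp2 over Igf2bp3 was -8.96. With LIN28B the ratio of Igf2bp2 over Igf2bp3 averaged 0.02, against 0.70 in wild-type bone marrow, with no overlap between 4 and 3 libraries (exact permutation p = 0.0286, the smallest possible, adjusted 0.2). Its lowest LIN28B value, -0.19, was that of vavcre replicate 4, and the other 3 lay between 0.03 and 0.13, below the wild-type range of 0.52 to 0.97. In the let-7b/c knockout it averaged 0.62, against 0.70 in wild-type bone marrow, and overlapped (exact permutation p = 0.8).

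**Figure D5:**
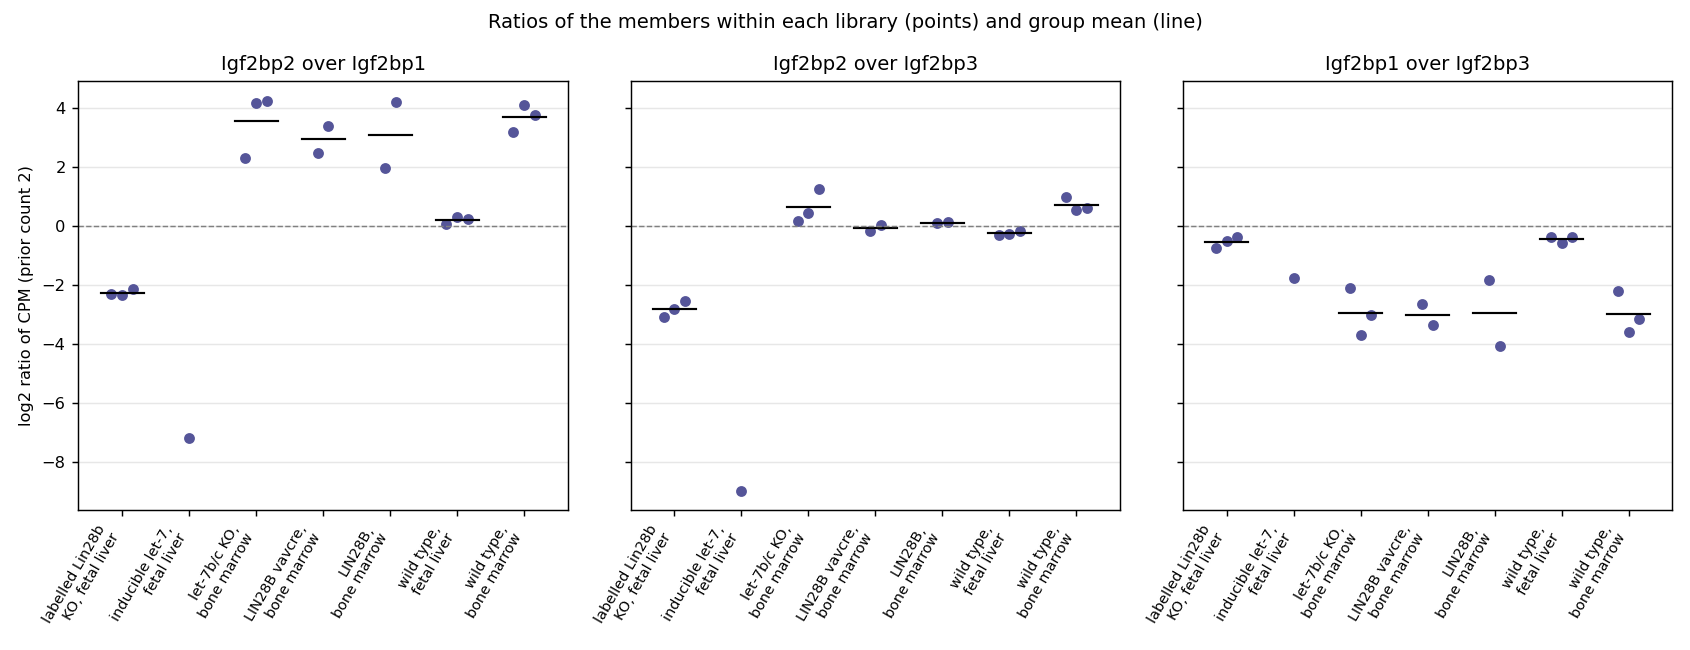
Log2 ratio of CPM between members in each library, by group, with group means as lines and 0 dashed. Both ratios with Igf2bp2 on top are lower in the labelled Lin28b knockout (means -2.27 and -2.82) than in wild-type fetal liver (0.19 and -0.25), and the ratio of Igf2bp1 over Igf2bp3 overlaps between these groups.

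Genes of the LIN28 and let-7 pathway and partners of the family were described from lists with the members left out. List genes that did not pass the filter on low counts were not tested, which left 9 of 13 axis genes and 17 of 24 partners. Between the wild types, 3 of 9 tested axis genes were higher in fetal liver and 2 lower (13.9% and 13.2% of all genes). Lin28b itself was 273-fold higher, at 104.2 ± 17.6 CPM in wild-type fetal liver and 0.359 ± 0.351 CPM in wild-type bone marrow (adjusted p = 7.89e-09). Hmga2 was 16.7-fold higher, at 532.5 ± 11.2 CPM in wild-type fetal liver and 31.9 ± 3.46 CPM in wild-type bone marrow (adjusted p = 9.24e-10). Of 31 tested let-7 target messages 18 were higher and 3 lower, with a median log2 fold change of 0.63 against -0.08 over all genes, and Cdc34, a ubiquitin-conjugating enzyme of the cell cycle, rose 2.96-fold (adjusted p = 8.31e-08).

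Of 17 tested ribonucleoprotein partners, 9 were higher in wild-type fetal liver and 0 lower, or 7 and 0 with plain library sizes. Of all genes, 13.9% were called higher and 13.2% lower. The median log2 fold change of the partners was 0.37, against -0.08 over all genes. G3bp1, a stress granule protein, had 1153 ± 21.5 CPM in wild-type fetal liver and 808 ± 54.6 CPM in wild-type bone marrow (adjusted p = 9.93e-05). Ybx1, a messenger RNA packaging protein, had 1352 ± 84.5 CPM in wild-type fetal liver and 896 ± 83.4 CPM in wild-type bone marrow (adjusted p = 0.000103). Of 25 other KH-domain genes 11 were higher and 2 lower, or 7 and 2 with plain library sizes, led by Pcbp4, a poly(C)-binding protein, at 8.64-fold (adjusted p = 7.89e-09). Of 16 genes that write, erase or read N6-methyladenosine, a mark the IGF2BPs are described to recognise, 3 were higher and 1 lower. These counts were near the shares over all genes, and with plain library sizes they were 1 and 1. Mettl16, a methyltransferase, was 1.63-fold higher (adjusted p = 0.000157) and Fto, a demethylase, lower at 188 ± 4.18 CPM in wild-type fetal liver and 236 ± 26.9 CPM in wild-type bone marrow (adjusted p = 0.00406).

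Of 20 tested client messages, which are reported as bound by IGF2BPs, 4 were higher and 3 lower in wild-type fetal liver. These counts were close to the 13.9% higher and 13.2% lower of all genes. The median log2 fold change of the client messages was -0.16, against -0.08 over all genes. Their list held 26 genes, and 3 of these had 0 counts in all libraries. Of those tested, Ldha, Cd44 and Ccnd3 averaged only 0.527, 0.304 and 0.0853 CPM in wild-type fetal liver. Abcb1b, a drug efflux transporter, was lower at 20.9 ± 4.99 CPM in wild-type fetal liver and 62.0 ± 1.63 CPM in wild-type bone marrow (SD, n = 3 each; edgeR adjusted p = 0.000151). Of 19 insulin-like growth factor signalling genes 3 were higher and 3 lower, also close to those shares, and 3 and 5 with plain library sizes. Igf2r, the receptor that clears IGF2, was 6.66-fold higher (adjusted p = 1.46e-05), and Igf1r, the signalling receptor, was lower at 82.4 ± 2.49 CPM in wild-type fetal liver and 115.3 ± 17.4 CPM in wild-type bone marrow (adjusted p = 0.00286).

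The labelled Lin28b knockout was next compared with fetal liver wild types over these lists. Of the let-7 target messages 6 were higher and 13 lower, with a median log2 fold change of -0.29 against 0.00 over all genes (20.8% of all genes called higher and 23% lower). Hmga2 fell 23.5-fold, to 22.6 ± 2.65 CPM in the labelled knockout against 532.5 ± 11.2 CPM in wild-type fetal liver (adjusted p = 3.46e-11), and the cyclin gene Ccnd2 fell 2.14-fold (adjusted p = 7.9e-08), whereas Rrm2, a subunit of ribonucleotide reductase, rose 3.61-fold (adjusted p = 8.02e-09). Of the axis genes 3 were higher and 3 lower, among them Ago2, the microRNA effector, which rose 4.28-fold (adjusted p = 4.47e-09). Of the other KH-domain genes 4 were higher and 11 lower, with Pcbp4 4.02-fold lower (adjusted p = 5.73e-08) and the splicing regulator Khdrbs3 2.64-fold lower (adjusted p = 4.51e-06). Of the partners 5 were higher and 5 lower, of the methyladenosine genes 5 and 4, and of the client messages 4 and 5. With plain library sizes, where the median of all genes was -0.19, the counts higher and lower were 3 and 8 for the methyladenosine genes, 3 and 6 for the partners, 1 and 12 for the other KH-domain genes, 5 and 16 for the let-7 targets, 3 and 4 for the axis, 4 and 6 for the client messages and 5 and 4 for the insulin-like growth factor genes. Mki67, a proliferation marker on the client list, rose 7.18-fold (adjusted p = 4.31e-12). Of the insulin-like growth factor genes 6 were higher and 4 lower, with Igfbp4, a secreted binding protein, 3.68-fold lower (adjusted p = 2.03e-07) and Irs2, a receptor adaptor, at 92.4 ± 11.1 CPM in the labelled knockout and 1.97 ± 1.27 CPM in wild-type fetal liver (adjusted p = 6.71e-05).

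With LIN28B in bone marrow, 12 of 31 let-7 target messages were higher and 2 lower (6.59% and 7.86% of all genes), with a median log2 fold change of 0.34 against -0.07 over all genes. Nras, a small GTPase, stood at 311 ± 42.9 CPM in the LIN28B libraries and 214 ± 0.965 CPM in wild-type bone marrow (adjusted p = 0.000166). Of the axis genes 3 were higher, among them Lin28b at 2.75 ± 1.03 CPM in the LIN28B libraries and 0.359 ± 0.351 CPM in wild-type bone marrow (adjusted p = 0.00133). Lin28b, which is also among the let-7 targets called higher, is by label the gene these lines induce, so its rise is no separate result. The partner, other KH-domain, methyladenosine, client and insulin-like growth factor lists had 1 to 2 genes higher and 1 to 4 lower. Igf2r was among the higher at 3.72-fold (adjusted p = 0.00115). In the let-7b/c knockout the let-7 target list had 1 gene higher and 2 lower of 31, where 1.33% of all genes were higher and 0.922% lower. Hmga2, which is on the target, axis and client lists, fell 4.09-fold, to 7.80 ± 2.89 CPM in the let-7b/c knockout against 31.9 ± 3.46 CPM in wild-type bone marrow (SD, n = 3 each; edgeR adjusted p = 2.79e-05). Mycn, a MYC-family transcription factor gene, fell 3.44-fold (33.3 ± 20.3 CPM in the let-7b/c knockout and 114.8 ± 7.05 CPM in wild-type bone marrow; adjusted p = 0.0116). Dna2, a DNA replication helicase and nuclease, was the gene called higher, at 137.3 ± 2.35 CPM in the let-7b/c knockout and 108 ± 11.1 CPM in wild-type bone marrow (adjusted p = 0.0454), a call lost with plain library sizes (adjusted p = 0.0877). Mki67 of the client list (1.30-fold, adjusted p = 0.033) and Fubp1, a KH-domain protein (1.25-fold, adjusted p = 0.0186), were lower.

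The genes whose pattern over the 17 libraries was most like that of each member were ranked by Pearson's r of log2 CPM among 7554 genes. The libraries fall into fetal and adult clusters and share their depth scaling, so r is a description of likeness over 17 libraries and carries no p. Igf2bp1 and Igf2bp3 were each other's nearest gene (r = 0.984). After it came Sdhd, Id1, Timm8a1 and Uba2 for Igf2bp1 (r = 0.953 to 0.957) and Ppid, Id3, Timm8a1 and Sdhd for Igf2bp3 (r = 0.960 to 0.970). Lin28b ranked 7 for Igf2bp1 and 9 for Igf2bp3. Igf2bp2 had an r of 0.582 with Igf2bp1 and of 0.535 with Igf2bp3, and its nearest genes were Tsr1 (0.936), Mtap, Uaca, Tpp2 and Tcf7. Uaca had 0.930 CPM and Tcf7 0 CPM in the inducible let-7 library, against 36.2 and 17.5 CPM in wild-type fetal liver. Hmga2 ranked 78 for Igf2bp2 (r = 0.765) and 1343 for Igf2bp1. The nearest genes changed with the measure: by Spearman's rho 1 of the 5 was shared for Igf2bp1 and Igf2bp3 and 0 for Igf2bp2.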

How the data were processed

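The members, gene lists and tests were chosen with earlier results of these data known. Per the labels' protocols, total RNA was converted with SMARTer ultra-low-input chemistry; per the submitters' processing notes the tools were cutadapt, TopHat2 and HTSeq on mm10, with no versions and no strand setting given. The deposited values are raw read counts per RefSeq transcript, made by the authors, 33818 accessions in each of 17 files. HTSeq sets aside reads that fit several features (23.8% to 29.8% of uniquely placed reads); these and reads outside features (8.87% to 19.3%) stayed out of library sizes.

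Transcript counts were added up by gene, with symbols from RefSeq (33435 accessions) or GENCODE vM21 (191), leaving 192 unnamed. edgeR 4.0.16 (R 4.3.3) quasi-likelihood tests with TMM, filterByExpr (13558 genes), 7 group means and 10 residual degrees of freedom were adjusted by Benjamini-Hochberg and called under 0.05; fold changes are fitted, and the LIN28B mean weights its lines equally. SE is the absolute log2 fold change over the root of F. On simulated counts for wild-type fetal liver against bone marrow, 71.6% of 2-fold and 89.1% of 4-fold changes were recovered. The simulated counts varied less between libraries than the data did (common biological coefficient of variation 0.265). These shares may therefore overstate the recovery in the data. The single inducible let-7 library was described on log2(CPM + 0.1), with cut-offs of 10 and 100 CPM chosen after seeing the data. Ratios used log2 CPM with a prior count of 2. List genes were named as up to 3 called members with the smallest p, and likeness by the 5 highest r among genes at 10 CPM or more in a group. DESeq2 1.42.0, other scalings, filters, sample sets and libraries left out in turn were alternatives. Reads carry no molecular identifiers, so counting intervals cover counting error only. Tables and figures used Python 3.11.15, pandas 2.3.3, scipy 1.17.1 and matplotlib 3.10.9. A list gene that the naming rule picked is not reported here.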

Additional observations from a re-analysis of the deposited data

Results flagged for a closer look

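Replicate 4 of the LIN28B vavcre line stood far from the other LIN28B bone marrow libraries for Igf2bp2, at 11.9 CPM against 6.66 to 6.80 CPM in the other 3, a gap of 0.974 of the range of the 4 libraries and past Dixon's 95% limit for 4 samples. It stood as far out for Igf2bp3, at 13.5 CPM against 6.07 to 6.58 CPM, a gap of 0.931 of the range. For Igf2bp1 it was also the highest, at 2.07 CPM against 0.269 to 1.70 CPM, with a gap of 0.205 of the range. Chance flags about 1 in 20 groups, and the 4 libraries come from both LIN28B lines. In that library the marker sums for neutrophils (547 CPM) and macrophages (15.0 CPM) were below those of replicate 6 of the same line (3095 and 31.5 CPM), and erythroid sums were 1199 and 1128 CPM. The cause was not tested.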

How the results depend on the processing

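Of 392 values of the members under alternative settings, 366 kept their direction and their side of the threshold, 5 lost the call, 10 gained it and 11 changed sign. A call was lost for Igf2bp1 in the labelled Lin28b knockout with DESeq2 (-1.30). Igf2bp3 lost calls when the fit held only the groups compared. They were those in LIN28B against wild-type bone marrow (1.0), in the vavcre line (1.35) and in the let-7b/c knockout against LIN28B (-1.10). In that fit the SE of Igf2bp3 rose from 0.20 to 0.31 for LIN28B against wild-type bone marrow and from 0.23 to 0.40 with vavcre. It fell from 0.22 to 0.09 between the wild types and from 0.17 to 0.06 in the labelled knockout against wild-type fetal liver. The cause of these shifts was not tested. The remaining lost call, under a replicate block, is given with that block. Igf2bp3 between the lines was called at 0.69 with DESeq2, with no filter and with genes of 1 transcript. Leaving out single libraries, the log2 ranges were -0.82 to 1.80 (Igf2bp1) and -0.06 to 0.25 (Igf2bp2) for LIN28B without vavcre, 0.19 to 2.19, 0.03 to 0.85 and 0.74 to 1.77 (Igf2bp1, Igf2bp2, Igf2bp3) with vavcre, -0.78 to 2.25, -0.00 to 0.81 and 0.08 to 1.11 between the lines, -0.95 to 0.69, -0.32 to 0.03 and -0.19 to 0.09 for the let-7b/c knockout, and -2.15 to -0.38 and -0.62 to -0.22 (Igf2bp1, Igf2bp2) for let-7b/c knockout against LIN28B. All values that changed sign were uncalled. In the labelled Lin28b knockout the ranges were -1.44 to -1.30, -3.93 to -3.73 and -1.29 to -1.22 and stayed called. The ratio of Igf2bp1 over Igf2bp3 with LIN28B moved from -0.00 to 0.09 with a prior count of 0.5.

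Counts of genes called depended on the fit. With only the groups compared they were 1132 (1958 with all 17 libraries) for LIN28B, 268 (109) without vavcre, 2007 (3634) with vavcre, 422 (2799) between the lines and 1000 (2506) for let-7b/c knockout against LIN28B. DESeq2 gave 389 without vavcre and 782 (305) for the let-7b/c knockout, and no filter gave 191 without vavcre. Leaving out single libraries gave 1095 to 2672, 26 to 62, 1376 to 3152, 96 to 378 and 1595 to 3193 genes for LIN28B, without vavcre, between the lines, let-7b/c knockout and let-7b/c knockout against LIN28B. These counts moved by over 1.5 times for LIN28B without iLIN28B replicate 1 (1166), wild-type replicate 2 (1095) or 6 (1206); for LIN28B without vavcre with any library left out; between the lines without iLIN28B replicate 5 (1376); for the let-7b/c knockout without its replicate 2 (130) or wild-type replicates 2 (96), 5 (191) or 6 (142); and against LIN28B without knockout replicate 1 (1623) or iLIN28B replicate 1 (1595). A library left alone in its group is assumed to vary like the other groups. Plain library sizes moved the share of calls that were higher to 38.1% (51.3%) for the wild types, 35.3% (47.5%) for the labelled knockout, 32.1% (49.4%) for it against bone marrow and 59.8% (45.9%) for LIN28B against fetal liver; the median of all genes moved from 0.00 to -0.19 for the labelled knockout. The cause was not tested. Igf2bp1 in the let-7b/c knockout could not be fitted with only the groups compared, since it did not pass the filter. Nothing in the labels pairs libraries by replicate number, and a replicate block was added after seeing the data for the comparisons that share at least 2 numbers. In LIN28B against wild-type bone marrow (2 numbers) same-numbered libraries had correlations of their deviations of -0.04 and 0.03. Against wild-type fetal liver (3 numbers) they lay between -0.00 and 0.03, and 2 of 3 LIN28B libraries correlated best with their own number. With the block, which leaves 4 residual degrees of freedom, 274 genes (1958) were called against bone marrow, with Igf2bp3 at 0.86 (adjusted p = 0.0532), and 3320 (4422) against fetal liver, all 3 members included. The other comparisons share at most 1 number.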
